A study of Homo sapiens with 60 samples.

Results

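The 6 genes described here are the aryl hydrocarbon receptor (AHR), its DNA-binding partner ARNT and 4 genes that the receptor is known to switch on, CYP1A1, CYP1B1, AHRR and TIPARP. They were found by matching their symbols to the Ensembl identifiers of the count table, and they are 6 of its 60675 gene identifiers. All 6 were matched and all 6 passed the filter on low counts, which kept 16445 genes. The cells were HT29, an established line from a human colorectal adenocarcinoma, kept in serum-containing medium and sampled 24 h after the start of treatment. The 60 libraries formed 22 groups. Vehicle (0.1% DMSO by the labels) had 3 libraries. Water extracts of the multi-herb formulas Palmul-tang and Sibjeondaebo-tang, and 70% ethanol extracts of Poria Cocos, Atractylodis Rhizoma, Glycyrrhizae Radix (licorice root) and Panax Ginseng, were given at 3 doses with 3 libraries per dose. Angelicae Gigantis Radix, also extracted with ethanol, had 1 library per dose. High, medium and low dose meant 350, 70 and 14 µg/mL of Glycyrrhizae Radix, 320, 64 and 12.8 µg/mL of Angelicae Gigantis Radix, and 500, 100 and 20 µg/mL of each of the others. The extracts are called Poria, Atractylodes, Glycyrrhiza, Ginseng and Angelica from here on. By the series text, an extract whose IC20 lay under 500 µg/mL was given at that IC20 and at steps of 1/5 down from it, which covers Glycyrrhiza and Angelica. All groups are the same cell line and carry the same batch letter. The first part of the sample name differs between vehicle and the extracts. Palmul-tang and Sibjeondaebo-tang share it, as do Poria and Atractylodes, and Glycyrrhiza and Ginseng, while Angelica has its own. Between extracts that do not share it, a difference in level tied to it cannot be told apart from treatment. Nothing in the labels ties replicates to separate cultures, and every p-value here therefore reflects library-to-library spread that may be technical only.

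The aryl hydrocarbon receptor is a ligand-activated transcription factor that waits in the cytoplasm, bound to HSP90 chaperones. Planar aromatic compounds from smoke, pollutants, diet and gut microbes bind it, after which it enters the nucleus, pairs with ARNT and binds DNA at a short core motif, GCGTG. In the intestine it is known for the induction of CYP1 enzymes, which oxidise such ligands and so clear them. AHRR and TIPARP act as feedback inhibitors of the receptor.

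Total counts ran from 19.3 M to 29.6 M per library, with a median of 25.1 M. Of 8 colon epithelium markers every one was detected, with a summed level of 7544 to 9200 CPM, led by KRT8. CDX1, CDX2 and CDH17 had medians of 0.905, 4.59 and 4.51 CPM. The fibroblast, immune, endothelial and hepatocyte lists summed to at most 2.01, 4.62, 2.41 and 0.16 CPM, and ALB, COL1A2, PTPRC, CD3E and CDH5 had a median of 0. For these markers CPM is the count per M of all counts of the library. Everywhere else CPM is the count per M of tested counts, scaled by TMM factors. The mitochondrial share of counts was 8.91% to 11.6% in vehicle libraries and 6.52% to 10.1% in extract libraries. Vehicle library 1 stood apart from vehicle libraries 2 and 3 in CYP1A1, CYP1B1 and TIPARP, and results that rest on it are given with and without it. In bulk RNA, fewer cells that express a gene and less of its RNA per cell cannot be told apart.

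Per kilobase of exon, the order of the 6 genes in HT29 cells put the TIPARP and AHR transcripts first. The median length-normalised level over 60 libraries (TPM, computed with the merged exon lengths of GENCODE 29) was 62.3 for TIPARP, 49.8 for AHR, 31.0 for CYP1B1, 18 for ARNT, 2.81 for AHRR and 0.923 for CYP1A1. Positions are those of GENCODE 29 on GRCh38. CYP1A1 (ENSG00000140465) lies on chromosome 15 from 74719542 to 74725610 on the minus strand. CYP1B1 (ENSG00000138061) lies on chromosome 2 from 38066973 to 38109902 on the minus strand. AHRR (ENSG00000063438) lies on chromosome 5 from 304176 to 438291 on the plus strand. TIPARP (ENSG00000163659) lies on chromosome 3 from 156673235 to 156706770 on the plus strand. AHR (ENSG00000106546) lies on chromosome 7 from 16916359 to 17346152 on the plus strand. ARNT (ENSG00000143437) lies on chromosome 1 from 150809705 to 150876768 on the minus strand. All are protein-coding and their counts cover all exons. AHRR shares 244 bp of exon with its same-strand neighbour PDCD6, and CYP1B1 shares 678 bp with the antisense gene CYP1B1-AS1. The largest overlap is that of AHR, which shares 2373 bp (29.4% of its exon length) with the same-strand gene AC019117.2. That gene is not in the count table.

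The core motif GCGTG was looked for on both strands in the 250 bases before each annotated start of the 6 genes (RefSeq sequences, GRCh38.p14), because it is the receptor's known contact on DNA. CYP1B1 was not in the table of promoter sequences. The motif was present before the starts of CYP1A1, AHRR and TIPARP. The sites are printed as 30 bases, 5′ to 3′ on the gene's strand, with the core in capitals. CACGC is the same core read on the other strand.
CYP1A1, chr15:74725568-74725597, 57 bases before the start: ccagggaaggagGCGTGgccacacgtacaa
AHRR, chr5:322360-322389, 247 bases before the start: ggcGCGTGacaggcaggggccaccctctga
AHRR, chr5:322556-322585, 42 bases before the same start: gcagaagggtggGCGTGtgcgcgcgttctc
TIPARP, chr3:156674370-156674399, 208 bases before the start: cgcgagaaaggaCACGCcccctcgcgggag
TIPARP, chr3:156674436-156674465, 142 bases before the same start: cgaacgaacgcgCACGCgcgcgcagggggc
The CYP1A1, both TIPARP and the second AHRR stretch also overlap an exon that GENCODE 29 gives for the same gene. A further AHRR start has the only window with the longer form TNGCGTG, which contains the core. Its 250 bases, free of annotated exons, are shown whole, with the core 30 bases before the start.
AHRR, chr5:321464-321713, plus strand, further start: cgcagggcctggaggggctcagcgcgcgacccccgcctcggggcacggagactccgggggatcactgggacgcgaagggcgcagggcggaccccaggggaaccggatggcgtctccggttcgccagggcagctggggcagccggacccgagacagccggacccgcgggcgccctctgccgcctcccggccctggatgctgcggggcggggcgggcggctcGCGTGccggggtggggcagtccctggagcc
The windows of AHR and ARNT and 2 further starts of TIPARP held no GCGTG. Over 35116 windows of the same length 32.2% held GCGTG and 4.52% held TNGCGTG, so a match of the short core is common. A match describes these letters only, and the windows do not reach the more distant enhancer regions for which CYP1A1 is known.

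CYP1A1, the oxidase most widely used as a readout of the receptor, was at a low level in all but a few libraries. Its level was 23.7, 24.8 and 30.3 CPM in the 3 Glycyrrhiza high dose libraries (483 to 697 counts). The other 54 extract libraries ranged from 0.388 to 2.59 CPM (8 to 76 counts). The vehicle libraries held 5.08, 0.612 and 0.845 CPM (12 to 104 counts). The Glycyrrhiza high dose thus stood above every other library, and vehicle library 1 stood between it and the rest. With Glycyrrhiza the mean was 0.675 ± 0.122 CPM at the low, 0.918 ± 0.401 at the medium and 26.3 ± 3.49 at the high dose (SD, n = 3). With Palmul-tang it was 0.738 ± 0.202, 0.926 ± 0.0839 and 1.42 ± 0.0146 CPM in the same order. Sibjeondaebo-tang gave 0.639 ± 0.0843, 0.921 ± 0.0942 and 1.04 ± 0.248 CPM. Poria gave 0.988 ± 0.309, 1.06 ± 0.168 and 2.16 ± 0.471 CPM. These 4 series had their highest mean at the high dose. Atractylodes gave 0.59 ± 0.161, 0.935 ± 0.255 and 1.32 ± 0.277 CPM. Ginseng gave 0.598 ± 0.184, 0.872 ± 0.115 and 1.28 ± 0.356 CPM. The Angelica libraries held 0.954, 0.649 and 1.23 CPM, with no replicate. The mean was thus higher at each dose step in 6 of 7 extracts, Angelica being the exception. In 6 of 6 replicated extracts all 3 high dose libraries lay above every low dose library. With Sibjeondaebo-tang the gap was small, 0.874 CPM for the lowest high dose library against 0.731 CPM for the highest low dose library. How many of all tested genes separate in this way was not counted, so this does not set CYP1A1 apart. Ordered by mean, Glycyrrhiza high was followed by vehicle (2.18 ± 2.52 CPM), Poria high, Palmul-tang high and Atractylodes high. Neighbours in the order of replicated groups differed by less than the larger SD of the pair, except Glycyrrhiza high from vehicle and Poria high from Palmul-tang high.

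**Figure D1:**
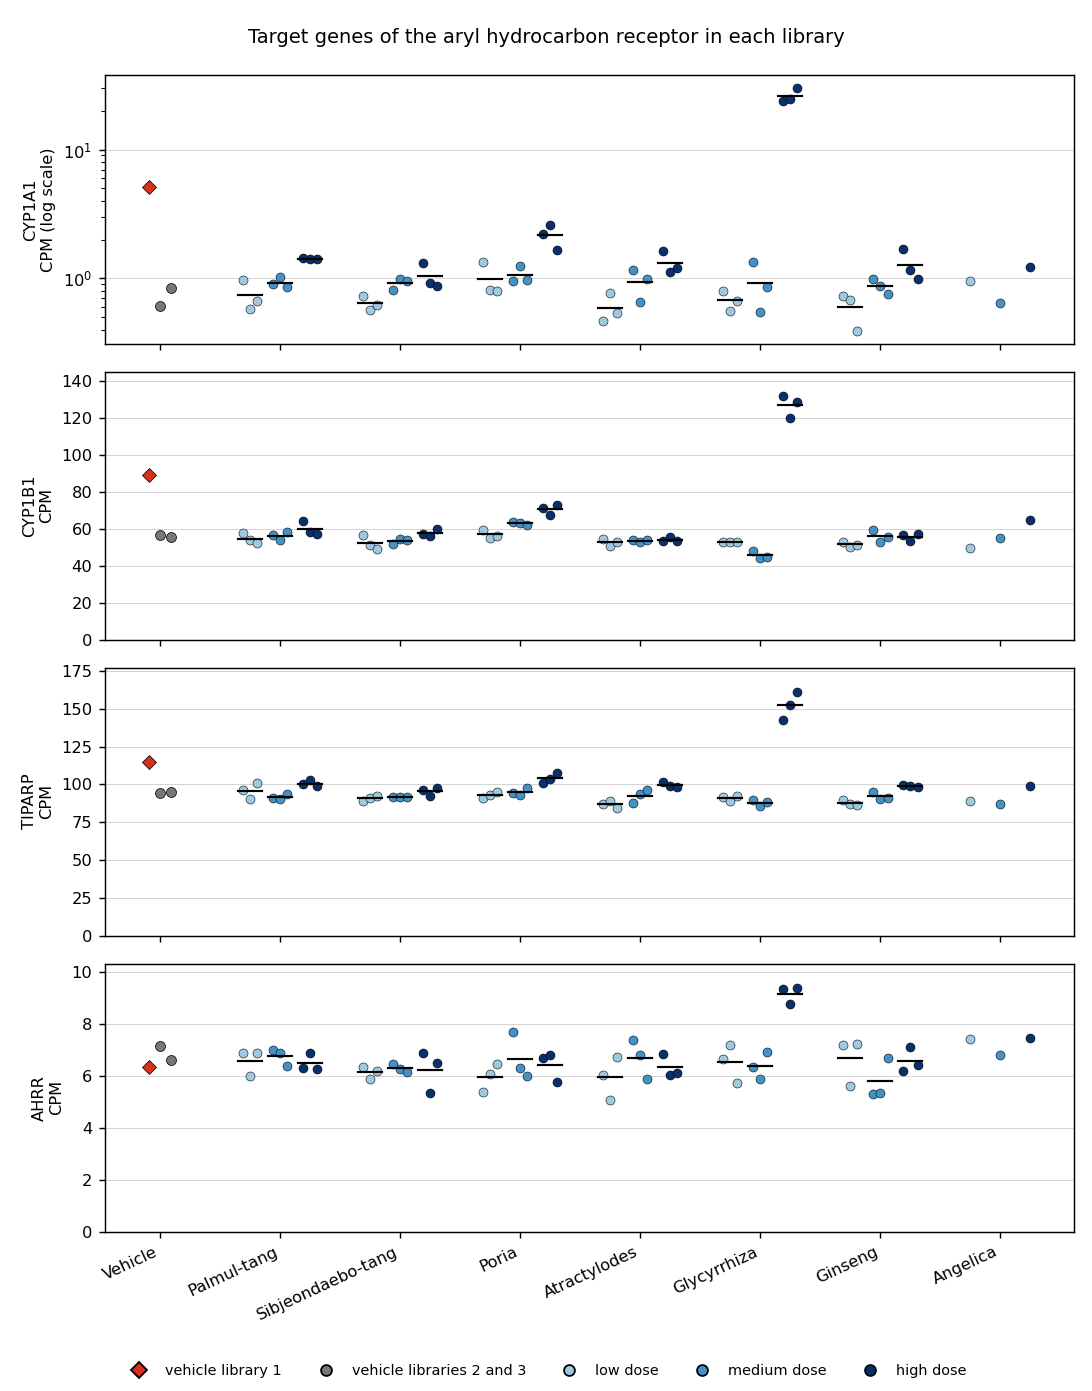
CPM of CYP1A1 (log axis), CYP1B1, TIPARP and AHRR in each of 60 libraries, by extract and dose, with short lines at the mean of each extract group of 3 libraries. The Glycyrrhiza high dose libraries are the highest for all 4 genes, and vehicle library 1 (red diamond) lies above vehicle libraries 2 and 3 for CYP1A1, CYP1B1 and TIPARP but not AHRR.

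CYP1B1, a related oxidase that was well expressed at baseline, moved with CYP1A1 at the Glycyrrhiza high dose. Its libraries held 132, 120 and 129 CPM there, against 52.7, 52.9 and 52.8 CPM at the low dose. The medium dose libraries held 48.1, 44.2 and 44.5 CPM, and their mean of 45.6 CPM was the lowest of the 22 groups. The level therefore did not climb step by step with Glycyrrhiza. The Poria libraries held 71.3, 67.3 and 72.6 CPM at the high, 62.3 to 63.6 at the medium and 55.2 to 59.3 at the low dose. The Poria high libraries lay above the low ones without overlap. The same held for Glycyrrhiza and, by a small gap, for Ginseng, where the nearest libraries were at 53.19 and 53.01 CPM. How many of all tested genes separate in this way was not counted. The single Angelica libraries held 49.4, 55.1 and 64.9 CPM from low to high dose, a ratio of high to low of 1.31 against 1.24 for the Poria means, with no replicate. Vehicle libraries held 88.9, 56.5 and 55.7 CPM. The group means of Palmul-tang, Sibjeondaebo-tang, Atractylodes and Ginseng at their 3 doses lay between 51.5 and 59.8 CPM. Neighbours in the order of replicated group means differed by less than the larger SD of the pair, except Glycyrrhiza high from Poria high at the top and Ginseng low from Glycyrrhiza medium at the bottom.

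TIPARP, an enzyme that attaches ADP-ribose to the receptor and dampens it, was also highest at the Glycyrrhiza high dose. The Glycyrrhiza high dose libraries held 143, 153 and 161 CPM, and the low dose libraries 92.0, 89.2 and 92.6 CPM. The medium dose libraries held 85.5 to 90.0 CPM. The other 54 extract libraries ranged from 84.1 to 107 CPM, with the 3 Poria high dose libraries at 101 to 107 CPM. High dose libraries lay above every low dose library with Sibjeondaebo-tang, Poria, Atractylodes, Glycyrrhiza and Ginseng, and overlapped with Palmul-tang. With Sibjeondaebo-tang the nearest libraries were at 92.11 and 92.05 CPM. The share of all tested genes that separate in this way was not counted. Vehicle libraries held 114.8, 94.3 and 94.8 CPM. In the order of replicated group means, Glycyrrhiza high stood off Poria high (104 ± 3.21 CPM), and Sibjeondaebo-tang low stood off Glycyrrhiza medium, by more than the larger SD, and no other neighbours did.

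AHRR, the repressor that competes with the receptor for ARNT, was at a low level. The Glycyrrhiza high dose libraries held 9.35, 8.74 and 9.37 CPM (170 to 227 counts), above all other libraries. The low dose libraries held 6.65, 7.17 and 5.73 CPM. The remaining 54 extract libraries ranged from 5.05 to 7.67 CPM and the vehicle libraries from 6.35 to 7.14 CPM. Below Glycyrrhiza high, all neighbours in the order of replicated group means differed by less than the larger SD of the pair, and 0 of 7 extracts had means that were higher at each dose step.

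The receptor and its partner varied little. AHR held 129, 131 and 116 CPM at the Glycyrrhiza high dose and 106, 110 and 118 CPM at the low dose, so these groups overlapped. Its group means over replicated extract groups lay between 109.5 CPM (Poria high) and 128.9 CPM (Atractylodes high), under the vehicle mean of 136.5 ± 9.08 CPM. Vehicle libraries held 131, 147 and 132 CPM. ARNT means lay between 32.7 CPM (Poria high) and 38.2 CPM (Ginseng low), with 37.8 ± 2.52 CPM in vehicle. For both genes all neighbours in the order of replicated group means differed by less than the larger SD of the pair.

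**Figure D2:**
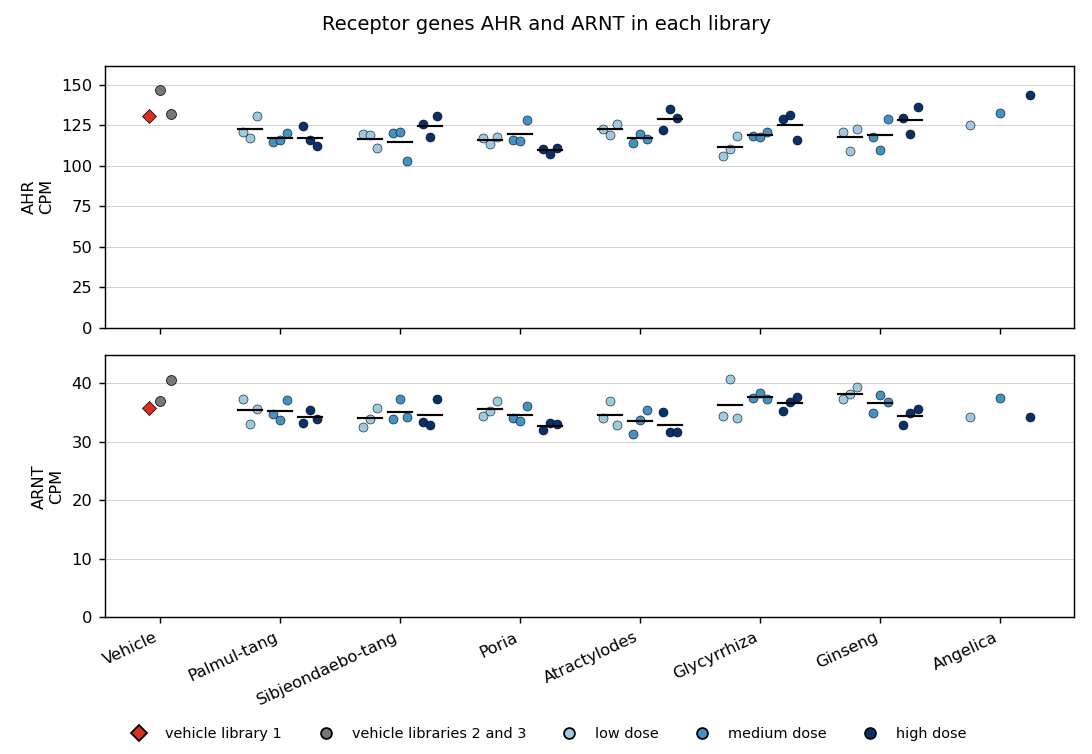
CPM of AHR and ARNT in each of 60 libraries, by extract and dose, with short lines at the mean of each extract group of 3 libraries and axes starting at 0. The libraries of each gene lie in 1 band, 103 to 147 CPM for AHR and 31.3 to 40.7 CPM for ARNT, and the Glycyrrhiza high dose does not stand apart.

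The first comparison asked which of the 6 genes differed between the high and the low dose of an extract, 2 dilution steps of 5 apart. A gene was called at a Benjamini-Hochberg adjusted p below 0.05 in edgeR's quasi-likelihood test over all tested genes, with 57 libraries in 1 fit. With Glycyrrhiza, 5 of 6 genes were called and all were higher at the high dose. CYP1A1 rose by a log2 fold change of 5.25 ± 0.33 (SE, 38.1-fold, adjusted p = 4.8e-18), the 13th largest rise of 16445 genes. CYP1B1 rose by 1.26 ± 0.08 (2.40-fold, adjusted p = 8.2e-18) and TIPARP by 0.73 ± 0.05 (1.66-fold, adjusted p = 7.5e-18). AHRR rose by 0.50 ± 0.11 (1.41-fold, adjusted p = 0.00027). AHR rose by 0.16 ± 0.06 (1.12-fold, adjusted p = 0.044), a call lost when any of 4 libraries was left out. ARNT was at 0.01 ± 0.06 with a 95% interval of -0.11 to 0.13, and was not called. In this comparison 24.9% of all tested genes were called. So many genes changed at this dose that a call by itself set the 6 genes little apart, while CYP1A1 was among the largest changes.

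With the other extracts fewer genes were called. CYP1B1 rose with Poria by 0.30 ± 0.08 (adjusted p = 0.032), and TIPARP rose with Atractylodes by 0.19 ± 0.05 (adjusted p = 0.0076) and with Ginseng by 0.17 ± 0.05 (adjusted p = 0.035). No gene was called with Palmul-tang or Sibjeondaebo-tang by edgeR or DESeq2. At an unadjusted threshold of 0.05 in edgeR's test, 1 gene would pass with Palmul-tang (CYP1A1) and 0 with Sibjeondaebo-tang. The share of all tested genes called was 0.152% with Palmul-tang, 0.371% with Sibjeondaebo-tang, 1.85% with Poria, 3.95% with Atractylodes and 2.52% with Ginseng. In all, 8 of 36 pairs of gene and extract were called, all of them higher at the high dose. The CYP1A1 differences with these 5 extracts were 0.93 ± 0.41 (Palmul-tang), 0.70 ± 0.45 (Sibjeondaebo-tang), 1.14 ± 0.37 (Poria), 1.16 ± 0.43 (Atractylodes) and 1.08 ± 0.46 (Ginseng), none of them called.

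Whether those CYP1A1 differences were called rested on vehicle library 1, which enters the estimate of spread although it is in neither group. The biological coefficient of variation fitted for CYP1A1 was 0.277 with that library and 0.119 without it, and for CYP1B1 it was 0.0653 and 0.0335. Without it, CYP1A1 was also called with Poria (1.14 ± 0.23, adjusted p = 0.0025), Atractylodes (1.17 ± 0.27, adjusted p = 0.0057) and Ginseng (1.08 ± 0.29, adjusted p = 0.026). TIPARP was then also called with Poria (0.16 ± 0.04, adjusted p = 0.014). Leaving the library out here was chosen after the data were seen, and it was set apart for its CYP1A1 level. The added CYP1A1 calls are therefore not independent of that choice. The count became 12 of 36 pairs, again all higher. The fold changes themselves were nearly the same in both fits. In that fit of 16687 genes the share called was 0.156% with Palmul-tang, 0.384% with Sibjeondaebo-tang, 1.85% with Poria, 3.88% with Atractylodes, 24.6% with Glycyrrhiza and 2.52% with Ginseng.

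**Figure D3:**
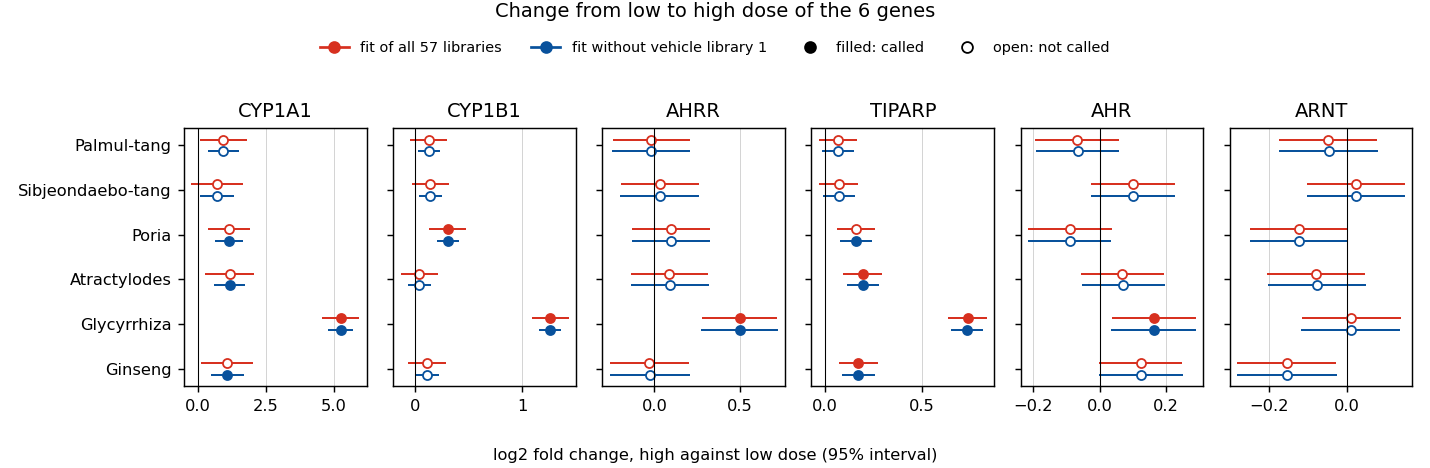
Log2 fold change of each of the 6 genes between high and low dose (x axis, with its own scale in each panel) by extract (y axis), with 95% intervals, in the fit of all 57 libraries (red) and without vehicle library 1 (blue). Filled points were called. The points of both fits coincide, and the intervals of CYP1A1 and CYP1B1 are narrower without that library, which makes CYP1A1 called in 4 extracts in place of 1.

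Between the medium and the low dose, 1 step of 5 apart, 0 of 36 pairs were called by edgeR and 0 by DESeq2, and 1 had an unadjusted p below 0.05. That pair was CYP1B1 with Glycyrrhiza, lower at the medium dose by a log2 value of -0.21 ± 0.08 (adjusted p = 0.77). CYP1A1 differences in this comparison ran from 0.12 (Poria) to 0.67 (Atractylodes) and were positive in 6 of 6 extracts. Almost nothing was called at this dose over the whole table. The share was 0.00608% (1 gene) with Palmul-tang, with Sibjeondaebo-tang and with Atractylodes, and 0% with Poria, Glycyrrhiza and Ginseng. Among the last 3, 1018, 1044 and 670 genes had an unadjusted p below 0.05, and DESeq2 called 0, 2 and 0. The 95% interval for CYP1A1 with Glycyrrhiza was -0.51 to 1.35, so a difference of either sign at 70 µg/mL was compatible with these libraries. Its width rests partly on vehicle library 1, through the fitted spread given above.

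Extracts that share the first part of the sample name are here called a set. Both extracts of a set can be compared at their high doses. These were equal in 2 sets, and 350 against 500 µg/mL for Glycyrrhiza and Ginseng. Over 3 such comparisons 6 of 18 pairs were called. Glycyrrhiza stood above Ginseng in CYP1A1 by 4.33 ± 0.30 (adjusted p = 3.9e-16), in CYP1B1 by 1.18 ± 0.08, in TIPARP by 0.62 ± 0.05 and in AHRR by 0.48 ± 0.11. Since the dose also differed, these values belong to the doses used. The share of all genes called there was 23.3%. Poria stood above Atractylodes at 500 µg/mL in CYP1B1 by 0.38 ± 0.08, and AHR was lower with Poria by a log2 value of -0.23 ± 0.06 (adjusted p = 0.043), where 0.985% of genes were called. Palmul-tang and Sibjeondaebo-tang at 500 µg/mL gave 0 of 6 calls with edgeR and DESeq2, 0 with an unadjusted p below 0.05, and 0% of all genes in edgeR. The CYP1A1 difference between these formulas was 0.45 ± 0.40 with a 95% interval of -0.35 to 1.24.

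The dose change of each extract was then tested against the mean dose change of the other 5, as an interaction in the same fit. The Glycyrrhiza change exceeded that mean in CYP1A1 by 4.25 ± 0.39 (adjusted p = 3.7e-12), in CYP1B1 by 1.12 ± 0.09 (adjusted p = 2.4e-14), in TIPARP by 0.60 ± 0.05 (adjusted p = 2.4e-13) and in AHRR by 0.46 ± 0.12 (adjusted p = 0.0024). AHR was at 0.14 ± 0.07 (adjusted p = 0.15) and ARNT at 0.09 ± 0.07. Of all tested genes 21.5% were called in this contrast. TIPARP changed less than the mean of the others with Palmul-tang, by a log2 value of -0.20 ± 0.05 (adjusted p = 0.048), and with Sibjeondaebo-tang, by -0.19 ± 0.05 (adjusted p = 0.039). That mean includes Glycyrrhiza, and the TIPARP changes were 0.07 and 0.07 for the formulas against 0.16 to 0.19 for Poria, Atractylodes and Ginseng. The shares of genes called were 0.669% for Palmul-tang, 1.21% for Sibjeondaebo-tang, 0.14% for Poria, 0.268% for Atractylodes and 0.109% for Ginseng. In all, 6 of 36 pairs were called, 4 higher and 2 lower. Without vehicle library 1, which was set apart for its CYP1A1 level, 11 were called, 4 higher and 7 lower. The lower ones were 4 of CYP1B1, 2 of TIPARP and 1 of CYP1A1, each against a mean that includes Glycyrrhiza. The share of all genes called in that fit was not listed for this contrast.

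Against vehicle the outcome turned on which vehicle libraries were used. Vehicle library 1 held 6.98 times the CYP1A1 level of the mean of libraries 2 and 3, the 7th largest such log2 ratio of 16445 genes. The library was set apart for its CYP1A1 level, so this rank is not independent of that choice. The CYP1B1 level of vehicle library 1 was 1.59 times that of libraries 2 and 3. This ratio had rank 471 of all 16445 genes, and rank 3 of the 7674 genes at 20 CPM or more. For TIPARP the ratio was 1.22, with rank 1586 of 16445 and rank 64 of 7674. AHRR, AHR and ARNT were at 0.925, 0.938 and 0.922 times. Of the other target genes, ALDH3A1 was at 0.939, NQO1 at 1.09 and UGT1A6 at 0.978 times. So CYP1A1, CYP1B1 and TIPARP were high together in 1 vehicle library, at levels under those of Glycyrrhiza high, and AHRR and ALDH3A1 were not. With 1 such library its source was not tested.

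With all 3 vehicle libraries, 54 of 108 pairs were called, 4 higher and 50 lower than vehicle. The 4 higher pairs were the Glycyrrhiza high dose in CYP1A1 (3.56 ± 0.28, adjusted p = 1.5e-14), CYP1B1 (0.92 ± 0.08), TIPARP (0.58 ± 0.05) and AHRR (0.45 ± 0.11, adjusted p = 0.00092). CYP1A1 was called lower in 13 of 18 groups, CYP1B1 in 14, AHR in 12, TIPARP in 8 and ARNT in 3. The share of all genes called was also large. It was 20.4%, 21.1% and 21.7% at the low, medium and high dose of Palmul-tang and 20%, 20.1% and 27.3% for Sibjeondaebo-tang. For Poria it was 18.5%, 20.6% and 25%, and for Atractylodes 22.4%, 20.7% and 22.5%. For Glycyrrhiza it was 17.6%, 13.1% and 34.3%, and for Ginseng 13%, 10.2% and 18.8%.

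Without vehicle library 1, 28 of 108 pairs were called, 10 higher and 18 lower. Only vehicle libraries 2 and 3 then remain. The library left out was set apart for its high CYP1A1 level, so the CYP1A1 calls below are not independent of that choice. CYP1A1 was then called lower in 0 of 18 groups and higher in 4. The 4 groups were the high doses of Glycyrrhiza (5.17 ± 0.25), Poria (1.57 ± 0.30, adjusted p = 7.8e-05), Palmul-tang (0.97 ± 0.32, adjusted p = 0.023) and Atractylodes (0.86 ± 0.32, adjusted p = 0.045). Ginseng high was at 0.83 ± 0.33 (adjusted p = 0.071). With all 3 vehicle libraries the same groups other than Glycyrrhiza were at -0.04 (Poria), -0.64 (Palmul-tang) and -0.75 (Atractylodes), none called. CYP1B1 was then called higher with Glycyrrhiza high (1.18 ± 0.05), Poria high (0.33 ± 0.05) and Poria medium (0.17 ± 0.05), and lower with Glycyrrhiza medium (-0.29 ± 0.06, adjusted p = 0.00026). TIPARP was called higher with Glycyrrhiza high (0.69 ± 0.04) and Poria high (0.14 ± 0.04), and lower with Atractylodes low (-0.12 ± 0.04). AHRR was called higher in 1 of 18 groups, ARNT lower in 3 and AHR lower in 13. In that fit the share of genes called was 20.7%, 21% and 21.7% for the 3 doses of Palmul-tang from low to high and 19.8%, 19.5% and 26.2% for Sibjeondaebo-tang. It was 18.1%, 20.7% and 24.2% for Poria and 22.1%, 20.8% and 22.5% for Atractylodes. It was 17%, 13% and 31.6% for Glycyrrhiza and 12.7%, 10.9% and 17.9% for Ginseng.

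AHR itself was the only gene of the 6 with a negative difference from vehicle in all 18 groups in both fits. ARNT came near to that. It was positive in 2 of 18 groups with all libraries and in 0 without vehicle library 1, with 3 lower calls in each fit. The log2 fold change of AHR with all libraries ran from -0.32 (Poria high, adjusted p = 8.8e-05) to -0.09, and 12 were called. All 18 comparisons use the same vehicle libraries, so the shared sign is not 18 separate results. A difference tied to the first part of the sample name cannot be told apart from treatment here. Without vehicle library 1 the values ran from -0.35 to -0.11 and 13 were called. The mitochondrial share was also higher in vehicle than in most extract libraries, and with that share as a covariate the AHR values in these 18 comparisons were again negative, from -0.34 to -0.10. With it the calls for Palmul-tang high, Poria medium and Atractylodes medium were lost (adjusted p = 0.06, 0.076 and 0.057).

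**Figure D4:**
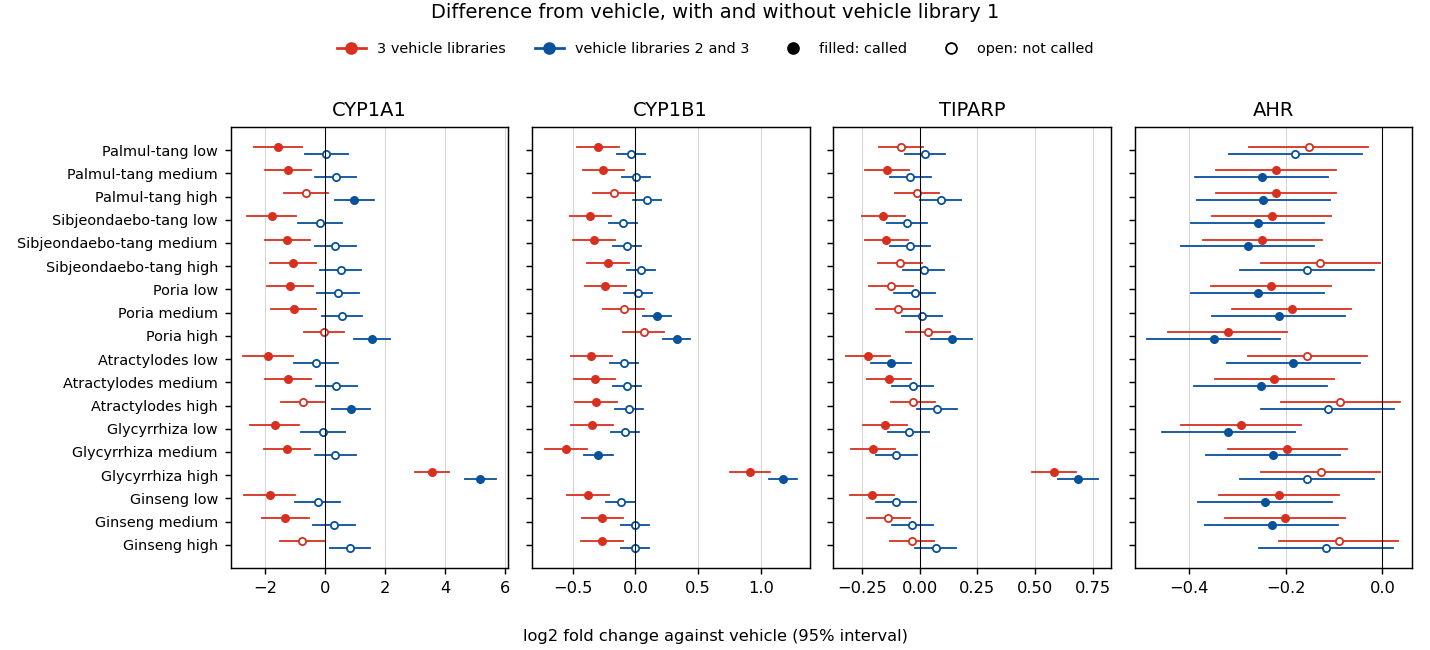
Log2 fold change against vehicle of CYP1A1, CYP1B1, TIPARP and AHR (x axis, with its own scale in each panel) for 18 groups of extract and dose (y axis), with 95% intervals, using 3 vehicle libraries (red) or vehicle libraries 2 and 3 (blue). Filled points were called. For CYP1A1 the blue points lie to the right of the red ones, and 14 of 18 are above 0 in place of 1, while the AHR points lie left of 0 in both.

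Other genes of the pathway were read from lists of its parts. Of 15 other known AhR targets, 10 passed the filter on low counts. CYP1A2, the liver member of the CYP1 family, did not, with at most 4 counts in any library. With Glycyrrhiza high against low dose 8 of the 10 were called higher and 0 lower, with a median log2 fold change of 0.51 against -0.01 over all tested genes, of which 24.9% were called. ALDH3A1, an aldehyde dehydrogenase, rose from 31.6 ± 3.18 to 77.7 ± 2.44 CPM (1.3 ± 0.05, adjusted p = 6.5e-26). SLC7A5, a transporter of large amino acids that also brings in receptor ligands, rose from 289.8 ± 16.1 to 497.9 ± 21.9 CPM (0.78 ± 0.05). NQO1 rose by 0.55, UGT1A6 by 0.51 and the efflux pump ABCG2 by 0.51, while SCIN was at 0.08 and CYP2S1 at 0.12, not called. With the other extracts, where CYP1A1 was low, some of these targets also rose. In Poria 6 of the 10 were called higher (1.85% of all genes called), in Atractylodes 6 (3.95%) and in Ginseng 5 (2.52%). In Palmul-tang (0.152%) and Sibjeondaebo-tang (0.371%) 3 of the 10 were called higher. ALDH3A1 rose in all 6 extracts, by 0.44 to 1.3. SCIN, an actin-severing protein, was called lower with Ginseng (-0.69 ± 0.20, adjusted p = 0.045).

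Many of these targets are shared with NRF2, the sensor of oxidative stress, so a list of NRF2 targets not known as AhR targets stands beside them. All 6 of that list were called higher with Glycyrrhiza (24.9% of all genes called), Poria (1.85%), Atractylodes (3.95%) and Ginseng (2.52%). With Sibjeondaebo-tang (0.371%) 5 of 6 were called higher, and with Palmul-tang (0.152%) 2 of 6. SLC7A11, the cystine importer, rose with Glycyrrhiza from 125.9 ± 7.00 to 430.6 ± 14.0 CPM (1.77 ± 0.07, adjusted p = 5.3e-26). GCLM, a subunit of glutathione synthesis, rose by 0.94 ± 0.06 with Glycyrrhiza. AKR1B10, an aldo-keto reductase, rose most of the 6 extracts with Atractylodes, from 99.7 ± 7.10 to 249.7 ± 12.5 CPM (1.32 ± 0.06), and by 1.26 with Glycyrrhiza. With Atractylodes CYP1A1 reached 1.32 CPM and with Glycyrrhiza 26.3 CPM. The part of NRF2 in the values of shared targets such as NQO1 was not tested.

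**Figure D5:**
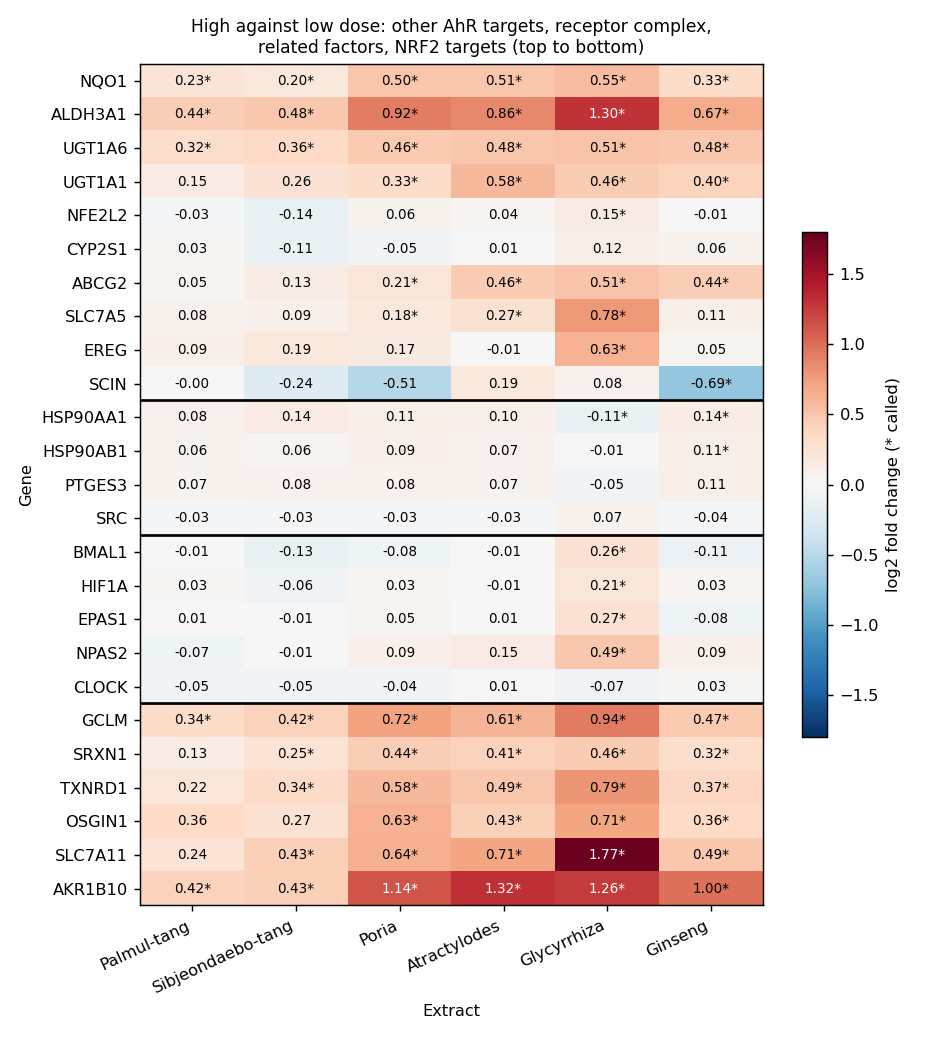
Log2 fold change between high and low dose (colour and printed value, * called) of genes of 4 lists (rows) in 6 extracts (columns). The NRF2 targets at the bottom and NQO1, ALDH3A1 and UGT1A6 at the top are positive in all 6 extracts, the receptor complex genes shown lie between -0.11 and 0.14, and the related factors were called in the Glycyrrhiza column only, 4 of 5, where 24.9% of all genes were called against at most 3.95% in each other column.

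The counts for the next lists stand against 24.9% of all tested genes called with Glycyrrhiza and 0.152% to 3.95% with the other extracts, so a short list with 0 calls there does not stand apart from other genes. The reported genes of the receptor complex moved little. HSP90AA1 was called lower with Glycyrrhiza, at -0.11, while HSP90AB1, PTGES3 and SRC were at -0.01, -0.05 and 0.07, not called. With Ginseng HSP90AA1 rose by 0.14 and HSP90AB1 by 0.11 (adjusted p = 0.023 and 0.045), and none of these genes was called with the other 4 extracts. Of 5 tested relatives with the same DNA-binding and PAS domains, 4 rose with Glycyrrhiza. NPAS2, a partner of BMAL1 in the clock, rose by 0.49 ± 0.07, EPAS1 by 0.27 ± 0.09, and BMAL1 by 0.26 ± 0.08. Of 11 coregulators 6 were called higher and 2 lower with Glycyrrhiza. RELB, an NF-kB subunit that can pair with the receptor, rose by 0.72 ± 0.09, KLF6 by 0.36 ± 0.04, and the corepressor NRIP1 by 0.30 ± 0.05. Of 5 tested enzymes on the route that makes and breaks down tryptophan-derived ligands, 2 were called lower with Glycyrrhiza. They were AADAT at -0.58 ± 0.21 and AFMID at -0.26 ± 0.09, a count near the share of all genes called. IDO1, which starts that route, had no count in any library. The antisense gene CYP1B1-AS1 rose with Glycyrrhiza from 2.80 ± 0.19 to 4.28 ± 0.40 CPM (0.60 ± 0.14, adjusted p = 0.00097), in the same direction as CYP1B1. PDCD6, which shares exon with AHRR, was lower there (-0.27 ± 0.05), in the opposite direction to AHRR.

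Across the 22 group means of log2 CPM, TIPARP had the pattern most like CYP1A1 of 13095 genes with a mean of at least 1 CPM (Pearson r = 0.98). After TIPARP came RHOF, MAPRE3, SHMT2 and PIM1 (r = 0.96, 0.96, 0.95 and 0.95). For CYP1B1 the most alike were TIPARP, CYP1A1, ITGB1, AHNAK2 and MOB3C (r = 0.95, 0.94, 0.93, 0.93 and 0.92). For TIPARP they were CYP1A1, ITGB1, IFRD1, ADGRF1 and CYP1B1 (r = 0.98, 0.96, 0.95, 0.95 and 0.95). For AHRR they were HDLBP, SMAD3, SNX9, BLTP3A and MAP7D1 (r = 0.88 to 0.84). These values lean on 1 group. Without Glycyrrhiza high, r over 21 groups was 0.88 between CYP1A1 and TIPARP, 0.70 between CYP1A1 and CYP1B1, and 0.18 between CYP1A1 and AHRR. CYP1A1 and AHR had r = 0.13 over 22 groups. The points share libraries, scaling and, in the vehicle group, library 1, so they are given as a description.

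Angelica, with 1 library per dose and no test, gave low CYP1A1 values. At the high dose of 320 µg/mL CYP1A1 had 24 counts, or 1.23 CPM with an exact Poisson 95% interval of 0.787 to 1.83 that covers counting error only. TIPARP was at 89.1, 87.4 and 98.8 CPM from low to high dose. AHR was at 125, 133 and 143.5 CPM, and 1 of the 57 libraries in the fit lay above the last value. AHRR was at 7.39, 6.79 and 7.47 CPM and ARNT at 34.2, 37.5 and 34.1 CPM.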

How the data were processed

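RNA was read as 100 bp pairs from strand-specific libraries, per the labels' protocols. The values deposited by the authors are expected counts for each gene. The submitters' processing notes name FastQC 0.11.9, Trim Galore 0.6.5, STAR 2.7.3a, RSEM 1.3.3 and hg38. Which annotation release was used is not given in these sources. RSEM shares ambiguous reads by estimated probability, so counts of overlapping or near-identical genes are uncertain. The expected counts were rounded to whole counts. The 213 other columns of the table were not used. A gene name table gave symbols for 56558 of 60675 identifiers, and GENCODE 29 gave exon lengths. The labels give 0.1% DMSO for vehicle, the series text 2%. Positive controls named in the series text were not analysed here.

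The 57 libraries of 19 groups of 3 were fitted together in edgeR 4.0.16 (R 4.3.3) with TMM factors (0.956 to 1.03), filterByExpr and the quasi-likelihood F test (38 residual degrees of freedom). Adjusted p-values are Benjamini-Hochberg within each of 39 comparisons. Errors beside log2 fold changes are standard errors from that fit. Angelica stayed out of the fit. The scripts were tested on simulated data. Named were the 6 genes, up to 3 called genes per pathway list with the largest change between high and low dose, and the 5 genes most like each of 4 members. Other list genes and CYP1A2, IDO1 and the cell markers were named after their values were seen. Members and lists were chosen with earlier results of these data known. A chi-square test of counts found replicates to differ by more than counting noise (2.37 to 23.9 per degree of freedom), so each was kept as its own sample. Alternatives were RLE factors, no filter, DESeq2 1.42.0, the replicate number as a block, the 2 groups alone, thinning to the smallest library and each library left out. Chosen after the data were seen were leaving out vehicle library 1 in comparisons that do not use it, a fit with no vehicle library, and the mitochondrial share as a covariate. One gene of the receptor complex list is not reported here.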

Additional observations from a re-analysis of the deposited data

Results flagged for a closer look

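In 6 results the change from low to high dose of 1 extract differed from the mean change of the other 5 extracts, by an interaction test in edgeR's quasi-likelihood fit. With Glycyrrhiza the log2 difference was 4.25 for CYP1A1 (adjusted p = 3.7e-12), 1.12 for CYP1B1 (adjusted p = 2.4e-14), 0.60 for TIPARP (adjusted p = 2.4e-13) and 0.46 for AHRR (adjusted p = 0.0024). For TIPARP it was -0.20 with Palmul-tang (adjusted p = 0.048) and -0.19 with Sibjeondaebo-tang (adjusted p = 0.039), against a mean that includes Glycyrrhiza. Groups of 3 libraries were too small for a test of single libraries, so vehicle library 1, at 5.08 CPM of CYP1A1 against 0.612 and 0.845 CPM, has values and no test.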

How the results depend on the processing

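RLE factors gave the same 5 counts of calls as TMM. The count of calls between high and low dose was 8, and 7 to 12 over the alternatives and left-out libraries. The count between high doses of a set was 6, and 5 to 7. Between medium and low dose it was 0 in each fit. Against vehicle it was 54, and 51 to 57 with other alternatives, except 17 when only the 2 groups were fitted and 28 without vehicle replicate 1. With 1 library left out it ran from 28 to 57. The count of dose changes that differed from the other extracts was 6, and 10 with no filter on low counts. With 1 library left out it ran from 5 to 11, the last without vehicle replicate 1. A value was counted as reversed where it was called in either fit. By that rule 17 values against vehicle reversed, all without vehicle replicate 1, and 111 uncalled values changed sign under some alternative. With each library left out, the reversed log2 fold changes of CYP1A1 ran from -2.01 to 0.0355 for Palmul-tang low, -1.69 to 0.35 for Palmul-tang medium, -1.08 to 0.97 for Palmul-tang high, -1.71 to 0.34 for Sibjeondaebo-tang medium, -1.52 to 0.52 for Sibjeondaebo-tang high, -1.61 to 0.43 for Poria low, -1.49 to 0.55 for Poria medium, -0.47 to 1.57 for Poria high, -1.68 to 0.36 for Atractylodes medium, -1.18 to 0.86 for Atractylodes high, -1.71 to 0.34 for Glycyrrhiza medium, -1.77 to 0.28 for Ginseng medium. Those of CYP1B1 ran from -0.37 to 0.0077 for Palmul-tang medium, -0.34 to 0.0426 for Sibjeondaebo-tang high, -0.36 to 0.0246 for Poria low, -0.21 to 0.17 for Poria medium, -0.38 to 9e-04 for Ginseng medium. The upper end of each range is the value without vehicle replicate 1. Same-numbered replicates did not pair (correlations of -0.11 to 0.19, none of 33 comparisons with every pair over 0.1, and 5 with each library best matched to its own number). With the replicate number as a block the counts were 9 (high against low), 0 (medium against low), 56 (vehicle), 6 (within sets) and 7 (dose change). CYP1A1 at 8 to 34 counts in low and medium dose libraries limits what could be detected there.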
